A study of Mus musculus with 6 samples.

Results

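The T cell receptor complex and coreceptor genes are 10 genes whose products let a T lymphocyte recognise antigen and stay alive in tissue. They were taken by gene symbol from a lung RNA table, by adding up the Ensembl transcripts of each symbol, and all 10 were found among 22158 genes. Together they are annotated with 30 transcripts. RNA of whole lung was sequenced from BALB/c mice, an inbred strain, with an age of 9 weeks in the labels. Mice of the PM2.5 group received PM2.5, fine airborne particulate matter, at 5 mg per kg of body weight in 50 µl of saline through the trachea, weekly for 8 weeks. Mice of the saline group received 50 µl of saline on the same schedule. Each group has 3 libraries, numbered 2, 3 and 4 in the labels. The labels do not say whether the libraries of a group come from separate mice, so each p-value measures the spread between these libraries, whatever its source.

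A T cell reads peptide on MHC molecules with a clonal receptor that has almost no cytoplasmic part of its own. The signal leaves through the CD3 gamma, delta and epsilon chains and the zeta chain, whose tails are phosphorylated by the kinase Lck. The coreceptors CD4 and CD8 bind MHC class II and class I and bring Lck to the receptor, CD28 supplies the costimulatory signal, and the interleukin-7 receptor keeps resting T cells alive. In lung, these genes mark resident and circulating T cells. Some members are shared by other cells of the mouse, though not always in lung: Il7r by innate lymphoid cells, Cd8a by a dendritic cell subset and Lck by natural killer (NK) cells.

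None of the 10 genes passed the test between PM2.5 and saline lungs. Levels are in FPKM, which divide a transcript's fragments by its length and by the library's depth, a unit inferred from the values because the table's header names none. In the PM2.5 libraries the 10 genes summed to 35.4, 39.1 and 47.0 FPKM, and in saline replicates 2, 3 and 4 to 67.0, 35.2 and 46.2 FPKM. Saline replicate 2 stood above the other 5 libraries, which overlapped. Of 14865 genes tested with limma on log2(FPKM + 0.5), 0.0942% passed an adjusted p of 0.05 in either direction and 0 of the 10 members did. At an unadjusted p under 0.05 the count was also 0 of 10, beside 11.5% of all tested genes. The groups overlapped for each of the 10 members, whereas they did not overlap for 18.8% of tested genes. The adjusted p of the members ran from 0.482 for Il7r to 0.954 for Cd3g (limma, Benjamini-Hochberg over all tested genes). In bulk tissue, fewer T cells and less RNA per T cell cannot be told apart.

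One saline library stood apart from the others. Saline replicate 2 had the highest level of the 6 libraries for 8 of the 10 members, all but Il7r and Cd28, and it was the highest library for 25.2% of all tested genes. Its level over the mean of saline replicates 3 and 4 was 3.48-fold for Cd8a and 3.32-fold for Cd8b1, against 0.929-fold for Il7r, and the median over all tested genes was 1.04-fold. All 6 pan-leukocyte markers listed (Cd52, Coro1a, Cd53, Laptm5, Cd37, Arhgdib) were also highest there, with a sum of 219 FPKM against 119 to 173 FPKM in the PM2.5 libraries and a lowest saline sum of 139 FPKM. The summed NK and cytotoxic markers reached 105 FPKM in saline replicate 2, against a lowest saline value of 45.2 FPKM and a PM2.5 range of 33.1 to 41.5 FPKM, and 10 of the 11 were highest there. Summed lung epithelial markers were 18157 FPKM in saline replicate 2 and averaged 9810 FPKM in saline replicates 3 and 4, and erythroid markers were 1634 and 3713 FPKM in the same comparison. The part of these differences in the results was not tested. Fold changes of the members, and counts and medians of the gene lists, are also given without this library.

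**Figure D1:**
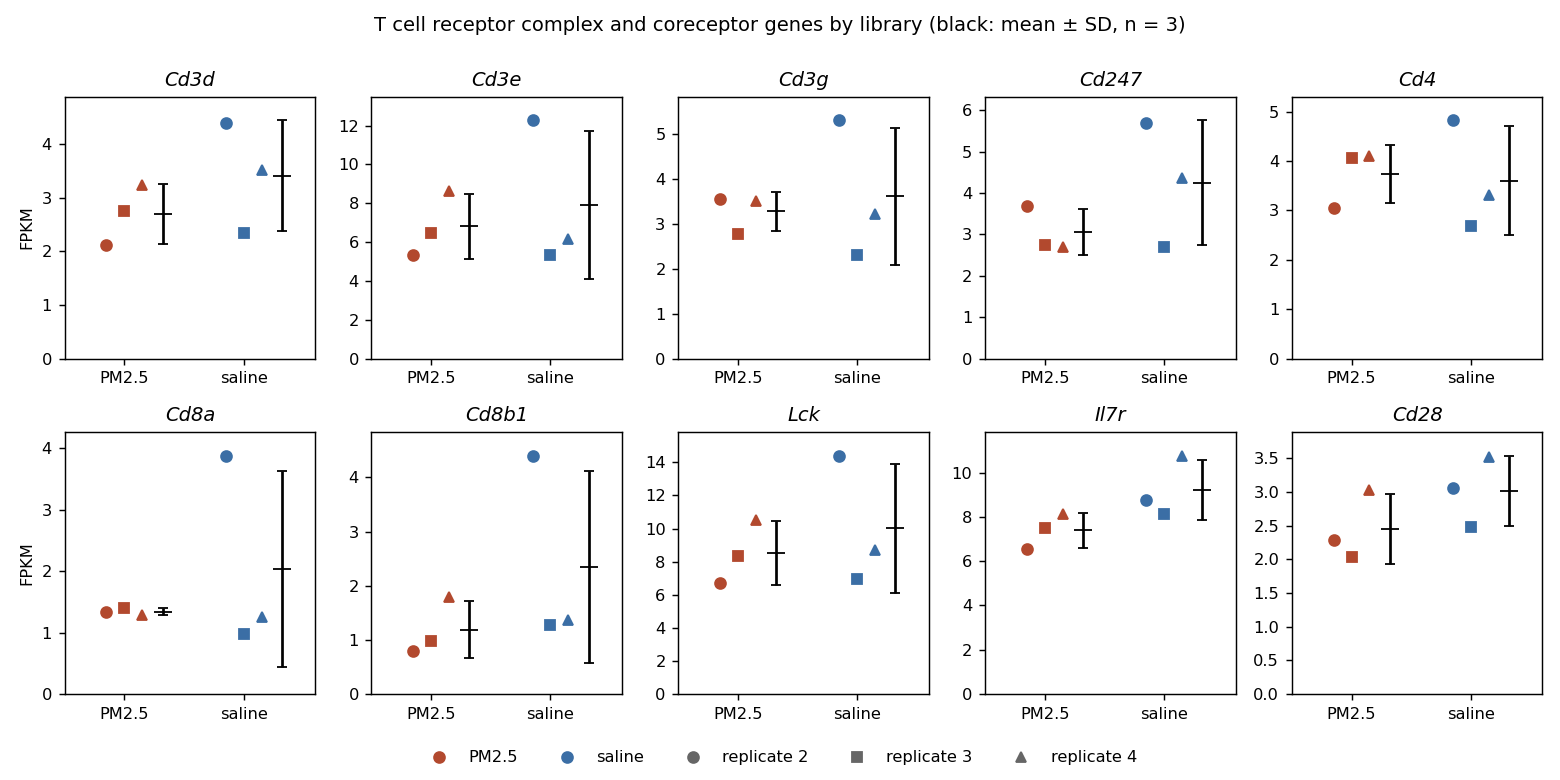
FPKM of each of the 10 genes by library, with PM2.5 libraries in red on the left and saline libraries in blue on the right of each panel, and black bars for the mean ± SD of 3 libraries. Saline replicate 2 (blue circle) is the highest point for 8 genes, and for Il7r and Cd28 the highest point is saline replicate 4.

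The CD3 chains form the signalling core of the complex. Cd3d, Cd3e and Cd3g lie side by side on chromosome 9 of mm10, with Cd3g at 44969572 to 44980431 on the minus strand, Cd3d at 44981793 to 44987052 on the plus strand and Cd3e at 44998743 to 45009590 on the minus strand. The promoter windows of these neighbours (RefSeq, GRCm38.p6, 250 bases before to 50 after each start) are shown as a description, because the genes are adjacent. Saline replicate 2 was their highest library, but it was so for 8 of the 10 members in all. Capitals mark AGGAAGT, a core bound by Ets-family factors, CAGGTG, an E-box bound by E proteins, and TGTGGT, a Runx core, on either strand; none of these letters overlap another motif.
Cd3g, chr9:44980382-44980681, minus strand: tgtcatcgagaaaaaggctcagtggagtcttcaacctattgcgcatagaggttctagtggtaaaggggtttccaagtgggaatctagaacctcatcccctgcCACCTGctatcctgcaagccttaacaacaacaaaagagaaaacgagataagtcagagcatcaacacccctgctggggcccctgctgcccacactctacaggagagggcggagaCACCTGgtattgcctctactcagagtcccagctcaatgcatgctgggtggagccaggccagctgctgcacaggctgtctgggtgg
Cd3d, chr9:44981536-44981835, plus strand: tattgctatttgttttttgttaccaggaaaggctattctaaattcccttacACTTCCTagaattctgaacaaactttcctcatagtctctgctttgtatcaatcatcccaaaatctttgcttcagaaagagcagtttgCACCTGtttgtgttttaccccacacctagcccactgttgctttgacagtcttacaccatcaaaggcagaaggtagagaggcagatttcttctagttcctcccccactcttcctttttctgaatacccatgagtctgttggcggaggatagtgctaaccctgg
Cd3e, chr9:45009562-45009861, minus strand: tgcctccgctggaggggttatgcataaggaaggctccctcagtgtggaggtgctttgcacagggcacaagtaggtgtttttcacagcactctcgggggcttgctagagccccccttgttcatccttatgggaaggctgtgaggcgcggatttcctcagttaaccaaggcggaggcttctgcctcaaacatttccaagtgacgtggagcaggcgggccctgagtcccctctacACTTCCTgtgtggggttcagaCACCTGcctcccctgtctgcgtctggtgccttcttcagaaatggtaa
The E-box letters occur in all 3 windows, in 6 of the 8 windows available for 7 members and in 20.2% of 32851 mouse promoter windows. The Ets letters occur in the Cd3d and Cd3e windows, in 6 of those 8 and in 9.35% of all windows, and the Runx letters in 2 of the 8 and in 16.8% of all. These motifs were chosen with the sequences in view, and a match is a description of the letters, not a binding site.

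Cd3e, whose chain pairs with both gamma and delta, had 5.33, 6.49 and 8.63 FPKM in the PM2.5 libraries, against 12.3, 5.32 and 6.15 FPKM in saline replicates 2, 3 and 4. The PM2.5 values lay between the lowest and the highest saline values. Its log2 fold change was -0.14 ± 0.33 (SE, n = 3 per group, limma adjusted p = 0.910), with a 95% interval of -0.95 to 0.68. Without saline replicate 2 the same estimate was 0.21, with an interval of -0.35 to 0.77.

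Cd3d had 2.12, 2.75 and 3.24 FPKM with PM2.5, against 4.39, 2.34 and 3.52 FPKM in saline, and a log2 fold change of -0.27 ± 0.24 (SE, limma adjusted p = 0.708). Cd3g had 3.55, 2.79 and 3.52 FPKM with PM2.5, against 5.31, 2.32 and 3.22 FPKM in saline, and its log2 fold change of -0.06 ± 0.28 (SE, limma adjusted p = 0.954) became 0.22 without saline replicate 2. In both genes the libraries of the 2 groups interleaved. Cd247, which encodes the zeta chain (chromosome 1, 165788681 to 165877277), had 3.69, 2.75 and 2.70 FPKM with PM2.5, against 5.70, 2.70 and 4.35 FPKM in saline. Its lowest PM2.5 and lowest saline values were nearly equal, and the log2 fold change of -0.38 ± 0.27 (SE, limma adjusted p = 0.626) stayed negative, at -0.16, without saline replicate 2. Summed over the 4 genes, the CD3 and zeta chains reached 14.7, 14.8 and 18.1 FPKM with PM2.5, against 27.7, 12.7 and 17.2 FPKM in saline.

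The receptor's own constant chains were measured alongside, from a list of 8 symbols of which 6 were tested. Trac, the alpha constant gene, had 4.05, 6.40 and 8.63 FPKM with PM2.5, against 9.42, 4.21 and 8.22 FPKM in saline, and a log2 fold change of -0.17 (limma adjusted p = 0.897), which was 0.04 without saline replicate 2. Trbc1, a beta constant gene, had 0.630, 1.06 and 0.515 FPKM with PM2.5, against 1.09, 1.98 and 1.78 FPKM in saline. The Trbc1 groups did not overlap, its unadjusted p was 0.0214 and its adjusted p was 0.354 (limma). Trbc2, a near-identical copy of Trbc1, was listed at 0.0164 to 0.0192 FPKM in the 6 libraries, so fragments shared by the copies leave both values uncertain. The other tested chains, Trdc, Tcrg-C1, Tcrg-C2 and Tcrg-C4, had unadjusted p values of 0.167 and above.

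Cd4, which binds MHC class II (chromosome 6, 124864692 to 124888221), had 3.06, 4.06 and 4.10 FPKM with PM2.5, against 4.82, 2.68 and 3.31 FPKM in saline. It was the only member with a positive log2 fold change in the fit of all 6 libraries, 0.07 ± 0.22 (SE, limma adjusted p = 0.937), and the interval ran from -0.48 to 0.62. That sign turned, to -0.10, when saline replicate 3 was left out.

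Cd8a and Cd8b1 lie close together on chromosome 6, at 71373427 to 71379173 and at 71322788 to 71337494. Cd8a, the alpha chain that binds MHC class I as a homodimer or with beta, had 1.34, 1.40 and 1.29 FPKM with PM2.5, against 3.88, 0.984 and 1.25 FPKM in saline. The 3 PM2.5 libraries were closely spaced above saline replicates 3 and 4 and far below saline replicate 2. Its log2 fold change was -0.29 ± 0.41 (SE, limma adjusted p = 0.825) over all libraries and 0.19 without saline replicate 2. Cd8b1, the beta chain of the heterodimer found on conventional cytotoxic T cells, had 0.792, 0.986 and 1.78 FPKM with PM2.5, against 4.40, 1.28 and 1.37 FPKM in saline. It had the widest interval of the members, from -1.73 to 0.47 around a log2 fold change of -0.63 (limma adjusted p = 0.633), and the estimate without saline replicate 2 was -0.16.

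Ratios between members within a library are given as descriptions, with no test. The level of Cd4 over Cd8a was 2.28, 2.91 and 3.18 with PM2.5, against 1.24, 2.72 and 2.65 in saline, so the low value was that of saline replicate 2. The level of Cd8b1 over Cd3e was 0.149, 0.152 and 0.207 with PM2.5, against 0.359, 0.240 and 0.223 in saline. This was the ratio, of 8 computed, in which the groups did not overlap, beside 18.8% of single tested genes. No such share was computed over ratios of other genes. The level of Lck over Cd3e stayed within 1.22 to 1.28 with PM2.5 and within 1.17 to 1.41 in saline.

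Lck, the Src-family kinase that phosphorylates the CD3 and zeta tails, had the highest mean level of the members. It had 6.70, 8.31 and 10.5 FPKM with PM2.5, against 14.4, 6.94 and 8.70 FPKM in saline, and the groups overlapped. Its log2 fold change was -0.18 ± 0.29 (SE, limma adjusted p = 0.847), and 0.10 without saline replicate 2. Its transcripts are described by where they start. Mouse Lck (chromosome 4, 129548344 to 129573641, minus strand, mm10) is transcribed from a distal and a proximal promoter; as background, the proximal one is used mainly in developing thymocytes and the distal one through later stages and in peripheral T cells. In the annotation used, 1 of the 8 Lck transcripts starts at 129573641, the distal site, and 3 start within 100 bases of 129558391, the proximal site, 15250 bases downstream.

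The windows of the 2 starts are shown because the shares of Lck FPKM from these starts did not overlap between the groups. Capitals mark the same motif letters as before.
Lck distal start, chr4:129573592-129573891, minus strand: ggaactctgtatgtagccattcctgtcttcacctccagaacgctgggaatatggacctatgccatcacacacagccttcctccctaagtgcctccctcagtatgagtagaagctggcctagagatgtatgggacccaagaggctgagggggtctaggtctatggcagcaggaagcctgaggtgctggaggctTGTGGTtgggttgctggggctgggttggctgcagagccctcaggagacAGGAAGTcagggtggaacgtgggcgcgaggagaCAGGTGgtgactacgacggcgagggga
Lck proximal start, chr4:129558323-129558622, minus strand: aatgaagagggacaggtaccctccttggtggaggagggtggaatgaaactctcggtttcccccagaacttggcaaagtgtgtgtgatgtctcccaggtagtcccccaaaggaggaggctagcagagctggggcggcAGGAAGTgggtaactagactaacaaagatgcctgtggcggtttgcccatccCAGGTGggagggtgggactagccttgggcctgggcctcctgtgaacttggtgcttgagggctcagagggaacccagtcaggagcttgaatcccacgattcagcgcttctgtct
Both windows hold the Ets and E-box letters, and the Runx letters occur in the distal window. Absence of these letters from a window says nothing about the factor.

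Transcripts from the proximal start summed to 0.681, 2.07 and 2.15 FPKM with PM2.5, against 6.12, 3.10 and 2.75 FPKM in saline, and every PM2.5 library lay below every saline library. The distal transcript ENSMUST00000102596 had 4.75, 4.85 and 6.94 FPKM with PM2.5, against 6.75, 3.20 and 4.02 FPKM in saline, with overlapping groups. As a share of all Lck FPKM, the distal transcript made up 70.9%, 58.4% and 65.8% with PM2.5, against 46.9%, 46.0% and 46.2% in saline. The mean share was 65.0% ± 6.29 with PM2.5 and 46.4% ± 0.448 in saline (SD, n = 3 each), and the lowest PM2.5 share was 11.5 percentage points above the highest saline share. Saline replicate 2, apart in total Lck, was not apart in this distal share. Other shares were less even among saline libraries. The proximal share of all Lck FPKM was 10.2%, 24.9% and 20.3% with PM2.5, against 42.5%, 44.6% and 31.6% in saline. Of distal plus proximal FPKM, the distal transcript averaged 78.0% ± 8.78 with PM2.5 and 54.2% ± 4.56 in saline (SD, n = 3 each). The groups did not overlap in either.

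This grouping by start was chosen after the transcript values were seen, so no test is attached to these shares. Among 32604 transcripts that average 5% to 95% of their gene, the groups did not overlap for 13.5%. A gap of at least 11.5 percentage points, that of the distal transcript, occurred for 1.13%. In the transcript fit, the main proximal transcript ENSMUST00000067240 had a log2 fold change of -0.90 ± 0.35 (SE, n = 3 per group), with an unadjusted p of 0.0420 and an adjusted p of 0.523 (limma), so it did not pass. Its groups did not overlap, which held with lower PM2.5 values for 8.31% of tested transcripts. Another proximal transcript, ENSMUST00000167288, was 2.19 FPKM in saline replicate 2 and 0.0656 FPKM or less in the other 5 libraries. A noncoding transcript of the NONCODE database, NONMMUT049647.2, lies on the same strand just inside the distal start; with it added to the distal transcript, the share was 72.9%, 62.7% and 68.4% with PM2.5, against 50.1%, 50.4% and 50.0% in saline. Values of overlapping transcripts are estimates that divide shared fragments, and how well they separate these starts was not tested. Of 5 listed thymocyte markers 3 were found, and their sum, nearly all Cd1d1, was 4.68 to 5.79 FPKM with PM2.5 and 5.42 to 5.83 FPKM in saline. The defining thymocyte genes Rag1 and Dntt were at or near 0, with 0.0240 FPKM or less for Rag1 and 0.0374 FPKM or less for Dntt in all 6 libraries.

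**Figure D2:**
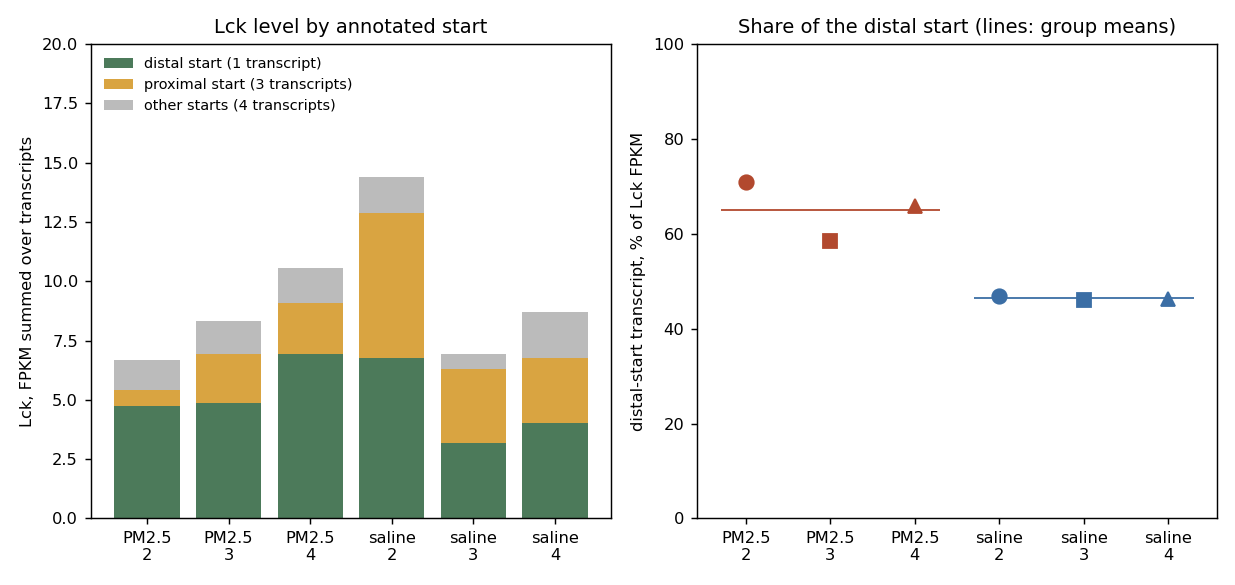
Left, Lck in FPKM by library (PM2.5 replicates 2 to 4, then saline replicates 2 to 4), stacked by annotated transcript start. Right, the distal-start transcript as a percentage of Lck FPKM, one point per library with lines at the group means of 65.0% for PM2.5 and 46.4% for saline; all 3 PM2.5 points lie above the 3 saline points.

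Other members were also resolved into transcripts. Of the 30 transcripts of the 10 genes, 14 reached the mean of 0.5 FPKM needed for testing, and 0 of the 14 passed the transcript fit, beside 0.152% of 60525 tested transcripts. At an unadjusted p under 0.05 the count was 1 of 14, the Lck proximal transcript, beside 9.46% of all. For Cd3d, Cd3e, Il7r and Cd8b1 a single transcript carried the gene. In Cd4, the longest-spanning transcript ENSMUST00000024044 had 2.11, 1.77 and 3.58 FPKM with PM2.5, against 2.44, 1.71 and 2.58 FPKM in saline, and ENSMUST00000151594 had 0.728, 1.98 and 0.492 FPKM with PM2.5, against 2.13, 0.757 and 0.651 FPKM in saline. It was high in PM2.5 replicate 3 and saline replicate 2. Cd8a was spread over 3 transcripts whose order changed from library to library. The transcript ENSMUST00000172321 had 0.00403, 0.476 and 0.848 FPKM with PM2.5, against 1.97, 0.00381 and 0.284 FPKM in saline, so the similar Cd8a sums of the PM2.5 libraries were divided unevenly.

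Il7r, the alpha chain of the interleukin-7 receptor (chromosome 15, 9506161 to 9529876), came nearest to a difference. It had 6.56, 7.52 and 8.14 FPKM with PM2.5, against 8.78, 8.13 and 10.8 FPKM in saline. The groups touched, since PM2.5 replicate 4 and saline replicate 3 were almost equal, and the other libraries separated. The log2 fold change was -0.29 ± 0.14 (SE, unadjusted p = 0.0767, limma adjusted p = 0.482), with an interval of -0.63 to 0.04. Il7r was not raised in saline replicate 2, and its estimate without that library was -0.32. Cd28, the costimulatory receptor for Cd80 and Cd86 (chromosome 1, 60716800 to 60773359), had 2.29, 2.03 and 3.03 FPKM with PM2.5, against 3.06, 2.47 and 3.51 FPKM in saline. Its log2 fold change was -0.26 ± 0.19 (SE, limma adjusted p = 0.635) over all libraries and -0.24 without saline replicate 2.

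**Figure D3:**
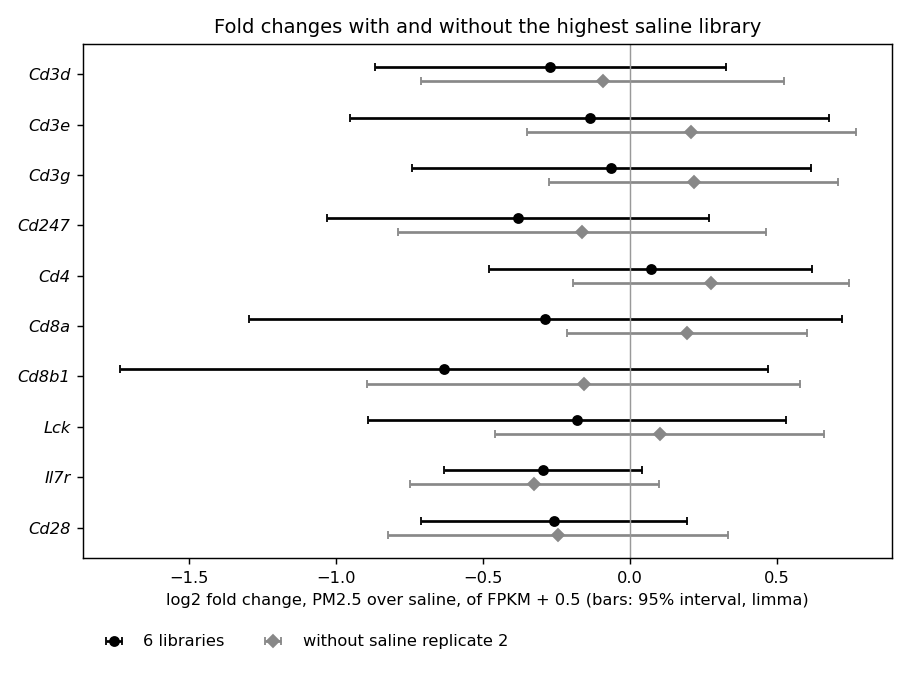
Log2 fold change of each member, PM2.5 over saline, on the log2(FPKM + 0.5) scale with 95% intervals from limma, over all 6 libraries (black) and without saline replicate 2 (grey). Every interval drawn includes 0, and the estimates of Cd3e, Cd3g, Cd8a and Lck change sign between the fits.

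Of the 10 members, 9 were negative in log2 fold change (median -0.26), beside 56.0% negative and a median of -0.03 over all tested genes. Without saline replicate 2, 5 were negative and 5 positive, with a median of 0.01. Without saline replicate 3, all 10 were negative and 1, Cd247, had an unadjusted p under 0.05 (limma adjusted p = 0.549), and the count passing the adjusted threshold was 0 in each of these fits. By mean level over the 6 libraries the order was Lck, Il7r, Cd3e, Cd4, Cd247, Cd3g, Cd3d, Cd28, Cd8b1 and Cd8a. Lck, Il7r and Cd3e overlapped in range within each group, as did each neighbouring pair from Cd4 to Cd28. Within each group the lowest Cd3e value was above the highest Cd4 value, while the highest Cd247 value in saline, 5.70 FPKM, was above the lowest Cd3e value there, 5.32 FPKM. Cd8b1 and Cd8a overlapped each other, and they lay below Cd28 in the PM2.5 libraries.

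Genes that work with the complex were taken from 9 lists of 127 genes, of which 104 were tested. In these lists 0 genes passed the adjusted threshold, and 12 were lower and 6 higher at an unadjusted p under 0.05, beside 7.82% and 3.66% of all tested genes. The groups did not overlap for 15 lower and 4 higher genes, beside 11.8% and 7.04% of all tested genes. The median log2 fold change of the 104 was -0.09, with 68 negative and 36 positive. Without saline replicate 2 the median of 103 tested genes was 0.03, with 49 negative and 54 positive, and 9 were lower and 6 higher at an unadjusted p under 0.05. The total of 18 genes at that threshold was 9 without PM2.5 replicate 3, with 8 lower and 1 higher, and 11 without PM2.5 replicate 4, with 10 lower and 1 higher.

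In proximal signalling, 21 of 27 tested genes were negative in log2 fold change (median -0.10), and without saline replicate 2, 10 of 27 were (median 0.08). Ptpn22, a phosphatase that dampens receptor signalling, had 4.74, 4.83 and 3.83 FPKM with PM2.5, against 9.84, 6.27 and 6.18 FPKM in saline (log2 fold change -0.65, limma adjusted p = 0.336). It was lower in every PM2.5 library than in any saline library, without passing the test. Fyn, the other Src-family kinase of T cells, which many lung cells also express, had 7.30, 11.9 and 8.95 FPKM with PM2.5, against 4.98, 6.68 and 6.97 FPKM in saline (log2 fold change 0.54, limma adjusted p = 0.408). Zap70, the kinase that docks on phosphorylated CD3 and zeta tails, had 2.68, 3.04 and 3.99 FPKM with PM2.5, against 5.68, 3.57 and 3.30 FPKM in saline, with overlapping groups. The adaptor Lat had 2.39, 3.11 and 3.55 FPKM with PM2.5, against 8.53, 3.76 and 4.16 FPKM in saline (limma adjusted p = 0.472). The Lat groups did not overlap.

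Among T cell transcription factors, 13 of 17 tested genes were negative in log2 fold change (median -0.33), beside 56.0% of all tested genes. Of the 17, 5 were lower with no overlap of the groups, beside 11.8% of all tested genes. Without saline replicate 2, 10 of 17 were negative (median -0.16). Klf2, which keeps resting T cells quiescent and circulating and is also strong in lung endothelium, had 21.1, 24.9 and 15.4 FPKM with PM2.5, against 44.9, 44.0 and 43.8 FPKM in saline. It had the lowest p of the 104 genes, with a log2 fold change of -1.12 ± 0.17 (SE, limma adjusted p = 0.126), and did not pass. Satb1, a chromatin organiser of T cells, had 9.27, 8.45 and 11.0 FPKM with PM2.5, against 17.9, 11.5 and 14.3 FPKM in saline. Ikzf1, the lymphoid factor Ikaros, had 3.07, 2.86 and 2.71 FPKM with PM2.5, against 6.06, 4.76 and 3.43 FPKM in saline. Both of these were lower in all 3 PM2.5 libraries, with adjusted p of 0.352 and 0.361 (limma).

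Among homing and residence genes, 7 of 15 had positive log2 fold changes and the median was -0.01. With saline replicate 2 left out, 9 of 15 were positive (median 0.17). S1pr1, the receptor that lets T cells leave lymph nodes and is abundant in endothelium, had 94.6, 101 and 80.4 FPKM with PM2.5, against 111, 140 and 143 FPKM in saline (limma adjusted p = 0.292). Cd69, an early activation and tissue-residence marker, had 2.47, 2.26 and 2.17 FPKM with PM2.5, against 3.96, 2.84 and 3.40 FPKM in saline (limma adjusted p = 0.330). Ccr4, a chemokine receptor of type 2 and regulatory T cells, had 0.818, 0.948 and 0.743 FPKM with PM2.5, against 0.523, 0.334 and 0.350 FPKM in saline (limma adjusted p = 0.304). Cd69 was lower and Ccr4 higher in every PM2.5 library, and neither passed.

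In the interleukin-7 list, 11 of 16 tested genes were negative in log2 fold change (median -0.11), and without saline replicate 2, 10 of 15 were (median -0.01). Crlf2, which pairs with the Il7r chain to form the receptor for the cytokine TSLP, had 1.08, 1.36 and 0.662 FPKM with PM2.5, against 5.17, 4.70 and 2.04 FPKM in saline. Its log2 fold change was -1.49 ± 0.36 (SE, limma adjusted p = 0.257). Bcl2, the survival factor that interleukin-7 sustains in T cells, had 6.57, 5.11 and 5.96 FPKM with PM2.5, against 7.80, 7.54 and 7.97 FPKM in saline (log2 fold change -0.38, limma adjusted p = 0.325). Both were lower in every PM2.5 library and did not pass. Il2rg, the common gamma chain and the usual partner of Il7r, averaged 16.6 ± 2.08 FPKM with PM2.5 and 19.2 ± 6.21 FPKM in saline (SD, n = 3 each), and the cytokine Il7 itself had 0.874, 0.820 and 1.06 FPKM with PM2.5, against 0.697, 0.826 and 0.772 FPKM in saline. The Il2rg and Il7 groups overlapped.

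Costimulatory and checkpoint receptors showed 5 positive and 6 negative of 11 tested genes, with a median of -0.13 and 0 at an unadjusted p under 0.05. Without saline replicate 2, 6 were positive and 5 negative (median 0.22). Tnfrsf4, the receptor OX40, came nearest, with 1.82, 1.03 and 1.25 FPKM with PM2.5, against 2.82, 1.53 and 2.78 FPKM in saline. Of the ligands, Cd80 and Cd86, which bind Cd28, had log2 fold changes of -0.20 and -0.03, and 2 of 4 tested ligands were positive. Effector cytokines were scarce, and Csf2 alone of 12 listed reached the level needed for testing, with a log2 fold change of 0.06 over all libraries and -0.07 without saline replicate 2. Of the MHC genes that the coreceptors bind, 4 of 7 were positive, with a median of 0.20, and 5 of 7 without saline replicate 2, with a median of 0.22. H2-K1, a class I heavy chain, had 13.8, 48.2 and 43.8 FPKM with PM2.5, against 6.78, 3.31 and 13.0 FPKM in saline (log2 fold change 2.12, limma adjusted p = 0.325), and class I genes are close copies that can share fragments. The class II gene H2-Aa had 116, 124 and 126 FPKM with PM2.5, against 104, 112 and 97.5 FPKM in saline (limma adjusted p = 0.407), higher in each PM2.5 library. The other genes of this list overlapped between the groups. H2-Ab1, H2-D1 and B2m had log2 fold changes of -0.19, -0.40 and -0.02 over all libraries, and H2-Eb1 and Cd74 had 0.20 each.

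Markers of other lymphocytes are given because several members are shared with them. All 10 tested NK and cytotoxic markers were negative in log2 fold change (median -0.44), beside 56.0% of all tested genes. Of these 10, 4 were lower with no overlap, Klrd1, Klrb1c, Klre1 and Gzma, beside 11.8% of all tested genes. Summed, they reached 33.1 to 41.5 FPKM with PM2.5 and 45.2 to 105 FPKM in saline. B cell markers had 8 of 9 negative, with sums of 30.6 to 66.3 FPKM with PM2.5 and 44.2 to 68.0 FPKM in saline. Plasma cell markers were positive in 7 of 7, with sums of 89.1 to 198 FPKM with PM2.5 and 54.5 to 96.4 FPKM in saline. The lowest saline sum was that of replicate 2, where Sdc1 had 2.49 FPKM, against 38.8 and 40.5 FPKM in saline replicates 3 and 4. Mzb1 went the other way, with 4.82 FPKM in saline replicate 2, against 2.52 and 3.15 FPKM. Innate lymphoid type 2 markers, from cells that carry Il7r, had 4 of 6 negative and sums of 7.52 to 9.41 FPKM with PM2.5 and 7.13 to 9.30 FPKM in saline. The largest part of these sums on average was Hlf, with 3.03, 3.96 and 4.45 FPKM with PM2.5, against 1.95, 1.84 and 3.76 FPKM in saline. Its direction was opposite to that of the 4 negative genes. In dendritic cell markers, 6 of 9 were positive and sums were 46.4 to 53.5 FPKM with PM2.5 and 46.3 to 58.2 FPKM in saline. The highest means in this list were those of Zbtb46, Bst2 and Itgax, while Clec9a averaged 2.66 FPKM with PM2.5 and 2.24 FPKM in saline. No gene of these 5 lists passed the adjusted threshold with limma. At an unadjusted p under 0.05 the counts were 1 of 10, 0 of 9, 2 of 7, 0 of 6 and 1 of 9, beside 11.5% of all tested genes. In the fit without saline replicate 2, 9 of 10 NK markers (median -0.26), 7 of 9 B cell markers (median -0.20), 1 of 7 plasma cell markers (median 0.42), 3 of 6 innate lymphoid markers (median -0.04) and 3 of 9 dendritic cell markers (median 0.09) were negative. The part of these lists in the members' values was not tested.

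**Figure D4:**
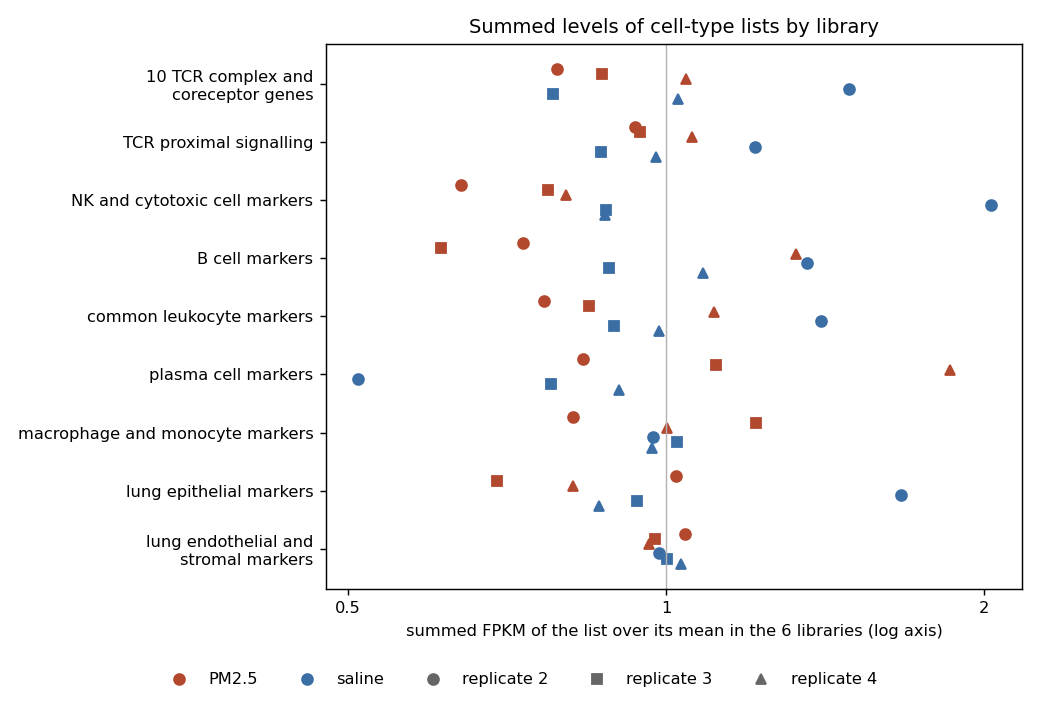
Summed FPKM of 9 gene lists in each library, divided by the mean of the 6 libraries, on a log axis; red points above are PM2.5 and blue points below are saline. Saline replicate 2 (blue circle) is the highest library for the 10 T cell receptor complex and coreceptor genes. It is also the highest for the proximal signalling, NK, B cell, leukocyte and epithelial lists. In the epithelial sum Sftpc was 8108 FPKM there, against 687 and 861 FPKM in saline replicates 3 and 4. For plasma cell markers saline replicate 2 is the lowest, in a sum where Sdc1 was 2.49 FPKM, against 38.8 and 40.5 FPKM in saline replicates 3 and 4.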

How the data were processed

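RNA was measured in 6 libraries of whole mouse lung, 3 per group. Per the labels' protocols, RNA was extracted with Trizol and libraries were made with a NEBNext Ultra kit, a non-directional design. The deposited values, 1 per transcript and library, were read as FPKM from their size and spread, since the header names no unit; the columns sum to 345089 to 388125. The submitters' processing notes name HISAT2, bcl2fastq and mm10, with no versions; for the quantifier and the annotation, a name is not given in the sources used here. Fragment depth is not given. Regular spacing of low values was best matched by depths at which 3 fragments on 1 kb are 0.136 to 0.160 FPKM, an estimate of counting error only, since finer spacings matched too.

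FPKM of Ensembl transcripts were summed per symbol. Genes with a mean of at least 0.5 FPKM were put on the log2(FPKM + 0.5) scale and fitted in R 4.3.3 (limma 3.58.1, data.table version 1.17.8) by empirical Bayes with a mean trend, 2-sided, Benjamini-Hochberg adjusted, threshold 0.05; all transcripts were fitted the same way. Fold changes are PM2.5 over saline and understate those of low genes. The fit was checked on simulated data. Named are all members, up to 3 genes with the lowest p of each list (1 such gene is not reported here), and the 5 genes most like the CD3 chains, while Trac, Trbc2, Zap70, Lat, Il2rg, Il7, Rag1, Dntt, Cd1d1 and the leukocyte and NK genes listed were picked out with their values in view. The members and lists were chosen with earlier results of these data known. Alternatives are listed in the closing section.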

Additional observations from a re-analysis of the deposited data

How the results depend on the processing

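The count of members called stayed at 0 in 18 alternatives: other pseudocounts, filters, scalings, moderation, library weights, a replicate block, each library left out in turn, the highest transcript alone, and NONCODE transcripts added. Their lowest adjusted p was 0.459 (limma), and 11 of 178 estimates changed sign. With each library left out, log2 fold changes ran from -0.36 to 0.21 for Cd3e, -0.30 to 0.22 for Cd3g, -0.10 to 0.28 for Cd4, -0.59 to 0.19 for Cd8a and -0.40 to 0.10 for Lck, and stayed negative for Cd3d, Cd247, Cd8b1, Il7r and Cd28. Cd3g was 0.0028 with quantile normalization, 0.041 with library weights and 0.025 with the highest transcript alone, where Lck was 0.26. In these cases the cause was not tested. Of the list genes, Cd86 was 0.0047 with median-ratio scaling, 0.046 with quantile normalization and 0.024 rescaled to a common sum; with each library left out, Cd86 ran from -0.072 to 0.013 and Csf2 from -0.14 to 0.25. In the 16 alternatives run for the list genes, all but the highest transcript alone and the added NONCODE transcripts, 0 were called, and the lowest adjusted p was 0.0905 (limma). List genes at an unadjusted p under 0.05 numbered 18, and 9 to 17 with each library left out. With each library left out, transcript estimates that changed sign ran from -0.042 to 0.30 (ENSMUST00000153207), -0.16 to 0.27 (ENSMUST00000024044), -0.19 to 0.34 (ENSMUST00000002101), -0.67 to 0.21 (ENSMUST00000172321), -0.50 to 0.27 (ENSMUST00000151594), -0.67 to 0.016 (ENSMUST00000205054) and -0.36 to 0.21 (ENSMUST00000102832). The difference in the Lck distal share was 18.7 percentage points, 15.7 to 22.0 with each library left out and 17.8 with the NONCODE transcript added, both chosen after seeing the data, as was leaving out saline replicate 2 for the marker lists. Same-numbered libraries did not deviate together (r = -0.0332, -0.0292 and 0.0497), so the numbers were not taken as pairs; with the replicate block, 0 members, 0 list genes and 0 member transcripts were called, and over all genes 1 was called, against 14 without it. Over all genes the calls numbered 5 to 26 with each library left out, 9 with a mean of at least 2 FPKM, 10 with no filter and 33 with the highest transcript alone. Cd8a and Cd8b1 fell under the filter of 2 FPKM and have no value there. Depth limits the low members: Cd8a transcripts lie near the floor of 0.136 to 0.160 FPKM in some libraries.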

Other observations

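Noncoding transcripts of the NONCODE database lie inside several of these genes. Within Il7r, on its strand at the 5′ end, NONMMUT022727.2 had 2.17, 2.21 and 1.95 FPKM with PM2.5, against 2.47, 1.98 and 2.79 FPKM in saline, with overlapping groups. Within Cd28, on its strand, NONMMUT001158.2 had 0.769, 0.755 and 0.969 FPKM with PM2.5, against 0.787, 0.560 and 1.01 FPKM in saline. At the 3′ end of Cd247, where Pou2f1 overlaps it from the opposite strand, NONMMUT003639.2 had 7.83, 6.87 and 6.96 FPKM with PM2.5, against 7.34, 7.34 and 7.35 FPKM in saline. It lies on the strand of Pou2f1, and its level was above that of Cd247 in every library. Without strand information fragments from the stretch that overlapping genes share cannot be told apart. The main Cd247 transcript, ENSMUST00000005907, ends at 165862066, before the stretch shared with Pou2f1, which starts at 165865154.

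Outside the members, the 5 genes whose log2 levels followed the mean of Cd3d, Cd3e, Cd3g and Cd247 most closely over the 6 libraries were Rmdn3, BC029214, Qars, Rasal3 and Parvb, with Pearson's r of 0.993, 0.986, 0.983, 0.982 and 0.979 and Spearman's rho of 0.886, 0.943, 0.943, 0.943 and 0.829. These are the highest of 14865 genes over 6 libraries that share saline replicate 2 as the top value, and are given as a description. Parvb had 2.78, 3.61 and 5.18 FPKM with PM2.5, against 24.3, 2.81 and 5.85 FPKM in saline. Among the members other than the CD3 and zeta chains, r with the same profile was 0.926 for Lck, 0.922 for Cd8a, 0.899 for Cd8b1, 0.784 for Cd4, 0.592 for Cd28 and 0.407 for Il7r.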
